A study of Salmo salar with 12 samples.

Results

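The microRNAs (miRNAs) miR-155 and miR-146 were examined in adherent cells of Atlantic salmon. The members were found by name, as every row of the small RNA count table called ssa-miR-155 or ssa-miR-146, with or without a letter, followed by an arm (5p or 3p). This rule gave 5 of the 361 mature miRNAs in the table, namely 1 row of miR-155 (ssa-miR-155-5p) and 4 rows of miR-146 (ssa-miR-146a-5p, ssa-miR-146b-5p, ssa-miR-146d-5p and ssa-miR-146d-3p). Small RNA libraries came from adherent intestinal cells (AIC, isolated from the distal intestine, 6 libraries) and adherent head kidney cells (AKC, the reference cell type, 6 libraries), which the study describes as biological replicates. Both groups were taken from fasted post smolts killed with an anaesthetic overdose, and the study describes its comparison as made without stimuli. The isolated cells of both organs were left to adhere for 2 days at 12°C before RNA was extracted. Leukocytes were isolated from each organ and the adherent ones kept, with no sorting by a marker named, so a library can hold several cell types. Per the methods, cells came from 6 fish from which both organs were taken. Which libraries share a fish is not given in the sources used here, and the tests below treat the groups as independent. The labels give no genotype, sex or treatment that separates the groups.

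In mammals, miR-155 and miR-146a are both switched on by NF-κB when macrophages meet bacterial products through Toll-like receptors. They then act in opposite directions. miR-155 lowers inhibitors of inflammatory signalling such as SOCS1 and the phosphatase SHIP1, and miR-146a lowers the adaptor proteins IRAK1 and TRAF6 and so feeds back on NF-κB. A mature miRNA is cut from one arm of a hairpin, and the 5p and 3p arms can accumulate to different levels. These roles are known from mouse and human cells and were not measured here.

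Total counts per library ranged from 2253241 to 11804738 in AIC and from 5791812 to 19586480 in AKC. Levels are given as CPM (counts per 1000000 counts of the library) after scaling with TMM factors, which ran from 0.528 to 1.0005 in AIC and from 1.05 to 1.79 in AKC. At these depths 3 counts, taken as the smallest countable signal, were at most 1.59 CPM in AIC and 0.492 CPM in AKC. The epithelial list (miR-141, miR-192, miR-194, miR-200 and miR-429) took 0.450% to 1.25% of an AIC library and at most 0.00954% of an AKC library, and the endocrine cell list (miR-7 and miR-375) took 19.5% to 28.4% and at most 0.0249%. In AIC nearly all of the endocrine share was ssa-miR-375-3p, at a mean of 333296 CPM against 226 CPM for ssa-miR-7a-5p. The difference of ssa-miR-7a-5p between AIC and AKC did not pass the threshold (adjusted p = 0.124, edgeR). The leukocyte list (miR-142, miR-150, miR-181 and miR-223) took 1.13% to 1.98% in AIC and 3.44% to 6.75% in AKC. Its row ssa-miR-142a-5p, named for a miRNA that marks blood cells in mammals, had no count in any AKC library. In AIC that row averaged 6.43 ± 15.5 CPM (SD, n = 6), and it was not tested for a difference. With an SD well above the mean, its counts were uneven between AIC libraries, and the mean does not describe the group. The erythroid list (miR-144 and miR-451) matched 2 rows, both arms of miR-144, and these had no count in any library. For miR-451, miR-223 and miR-141 no row had a name of the form used, so their levels are not known here. Replicates 1 and 2 of AKC stood apart from the other AKC libraries in several rows below, and they also had the largest totals of the group, 19586480 and 13211794 counts.

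ssa-miR-155-5p, the arm from which miR-155 acts in mammals, was higher in AKC than in AIC. In AIC its normalized level was 430 CPM in replicate 1, 82.0 in replicate 2, 140.9 in replicate 3, 6.67 in replicate 4, 51.7 in replicate 5 and 363 in replicate 6. In AKC it was 4972 CPM in replicate 1, 3656 in replicate 2, 947 in replicate 3, 578 in replicate 4, 531 in replicate 5 and 902 in replicate 6. Every AIC library lay below every AKC library, and within AKC replicates 1 and 2 were well above the rest. The AKC mean was 1931 ± 1899 CPM (SD, n = 6), to which those 2 libraries contributed 74.5%, against an AIC mean of 179 ± 175 CPM (SD, n = 6). By count, ssa-miR-155-5p ranked between 13 and 26 among all miRNAs of an AKC library and between 34 and 103 in AIC.

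The log2 fold change of ssa-miR-155-5p, AIC over AKC, was -3.43 (standard error 0.90, 95% confidence interval -5.36 to -1.50, Benjamini-Hochberg adjusted p = 0.00858, edgeR quasi-likelihood test). On the linear scale the AKC level was 10.8-fold that of AIC (interval 2.83 to 41.1). Calls required an adjusted p under 0.05 and at least 2-fold higher or lower expression. Of the 76 miRNAs tested, 9.21% were called lower in AIC and 26.3% were called in either direction (13 higher and 7 lower). This split depends on the scaling, and with total counts alone 9 were called higher and 20 lower. ssa-miR-155-5p ranked 5 among them by its log2 fold change, counted from the most negative. For 10.5% of the tested miRNAs every AIC library lay below every AKC library, and ssa-miR-155-5p was one of these. In bulk libraries, fewer cells that express a miRNA and less of it per cell cannot be told apart.

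The direction was the same and the call was kept when any 1 library was left out, with log2 fold changes from -4.36 (without AIC replicate 6) to -3.16 (without AIC replicate 4). The value without AIC replicate 6 is the only one of these that moved the fold by more than 1.5 times. Without AKC replicates 1 and 2 together, an alternative chosen after seeing the data, the log2 fold change was -1.77 and was no longer called (adjusted p = 0.160, edgeR). In that fit the median of all tested miRNAs was 0.65, so relative to it ssa-miR-155-5p was at -2.42, and the groups just overlapped, with 483 CPM in the highest AIC library and 466 CPM in the lowest AKC library. When the same 4 AKC and 6 AIC libraries were scaled by total counts alone, a pairing of choices also made after seeing the data, the log2 fold change was -2.86 and was called (adjusted p = 0.0213, edgeR). With all 12 libraries and total counts in place of TMM it was -4.28 and called (adjusted p = 0.00208, edgeR). When every library was thinned to 2253241 counts, the total of the smallest, it was -3.36 and called (adjusted p = 0.00736, edgeR).

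ssa-miR-146a-5p, the main miR-146 row in both groups, did not differ between AIC and AKC beyond the spread between libraries. Its normalized level in AIC was 137 CPM in replicate 1, 79.3 in replicate 2, 247 in replicate 3, 266 in replicate 4, 269 in replicate 5 and 189 in replicate 6. In AKC it was 1121 CPM in replicate 1, 406 in replicate 2, 37.5 in replicate 3, 48.2 in replicate 4, 158 in replicate 5 and 353 in replicate 6. The AKC libraries lay on both sides of the AIC libraries, with replicates 1, 2 and 6 above all of them and replicates 3 and 4 below all of them. The AKC mean was 354 ± 406 CPM (SD, n = 6), of which replicates 1 and 2 made up 71.9%, and the AIC mean was 198 ± 77.4 CPM (SD, n = 6). By count, ssa-miR-146a-5p ranked between 39 and 58 in an AIC library and between 26 and 58 in an AKC library.

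Its log2 fold change, AIC over AKC, was -0.84 (standard error 0.78, adjusted p = 0.491, edgeR). The 95% confidence interval from -2.50 to 0.83 leaves room for a several-fold difference, so equal levels are not shown. When 1 library was left out it ran from -0.99 to -0.06, the latter without AKC replicate 1 (adjusted p = 0.961, edgeR), and was never called. Without AKC replicates 1 and 2 together the sign turned, to 0.74 (adjusted p = 0.610, edgeR), and relative to the median of all miRNAs in that fit it was 0.08. With total counts alone in place of TMM it was -1.70, or -1.05 relative to the median of all tested miRNAs, and was not called (adjusted p = 0.140, edgeR).

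**Figure D1:**
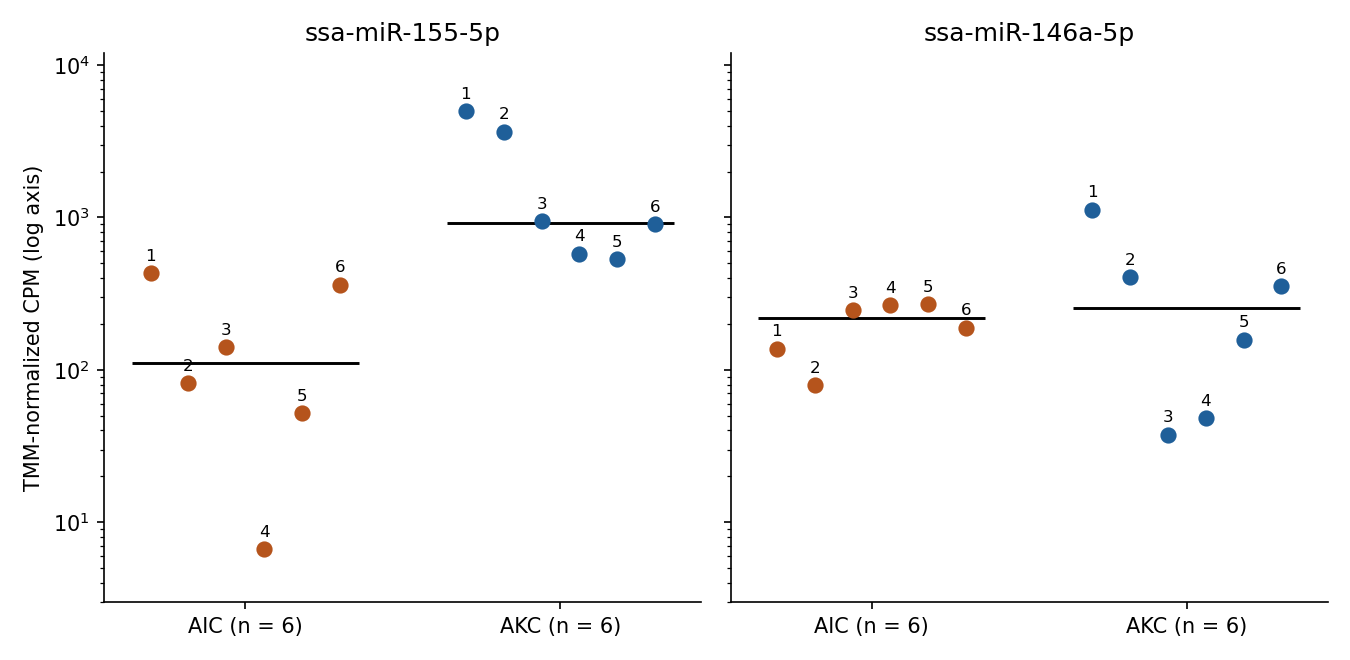
TMM-normalized CPM (log axis) of ssa-miR-155-5p (left) and ssa-miR-146a-5p (right), with 1 point per library labelled by its replicate number and a line at the group median (n = 6 per group). For ssa-miR-155-5p the AIC libraries reach 430 CPM and the AKC libraries start at 531 CPM, whereas for ssa-miR-146a-5p the AKC libraries, from 37.5 to 1121 CPM, span the AIC libraries.

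The 2 miRNAs were set against each other within each library, since their ratio does not depend on how libraries are scaled. Reads of ssa-miR-155-5p outnumbered those of ssa-miR-146a-5p in 6 of 6 AKC libraries and in 3 of 6 AIC libraries. In AKC there were 4.44 reads of ssa-miR-155-5p per read of ssa-miR-146a-5p in replicate 1, 9.01 in replicate 2, 25.2 in replicate 3, 12.0 in replicate 4, 3.37 in replicate 5 and 2.56 in replicate 6. In AIC the same ratio was 3.13 in replicate 1, 1.03 in replicate 2, 0.571 in replicate 3, 0.0253 in replicate 4, 0.193 in replicate 5 and 1.92 in replicate 6. The ratio was thus above 1 throughout AKC and on both sides of 1 in AIC, where replicate 4 held 39.5 reads of ssa-miR-146a-5p per read of ssa-miR-155-5p. Only AIC replicate 1 reached into the range of AKC.

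In AKC the log2 ratio averaged 2.78 ± 1.25 (SD, n = 6), and in AIC it averaged -0.98 ± 2.54 (SD, n = 6). The difference, AIC minus AKC, was -3.75 and exceeded what the spread within groups gives (two-sided exact permutation test over libraries, p = 0.00433, where the smallest p that 6 against 6 allow is 0.00216). This also tests whether the 2 miRNAs differed between the cell sources to the same extent, and they did not. Without AKC replicates 1 and 2 together the difference was -3.81 and stayed past the threshold (exact permutation test, p = 0.0238). This is a single p without adjustment, whereas the fold change of ssa-miR-155-5p alone was held to a p adjusted over all tested miRNAs. The 2 outcomes are therefore not set against each other. Leaving out AIC replicate 4, which had only 48 counts of ssa-miR-155-5p (95% exact Poisson interval 35.4 to 63.6, counting error only), brought it to -2.89 (exact permutation test, p = 0.00866). Each miRNA is ligated and amplified with its own efficiency, so the ratio can be compared between libraries but does not give the molar ratio in the cells.

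**Figure D2:**
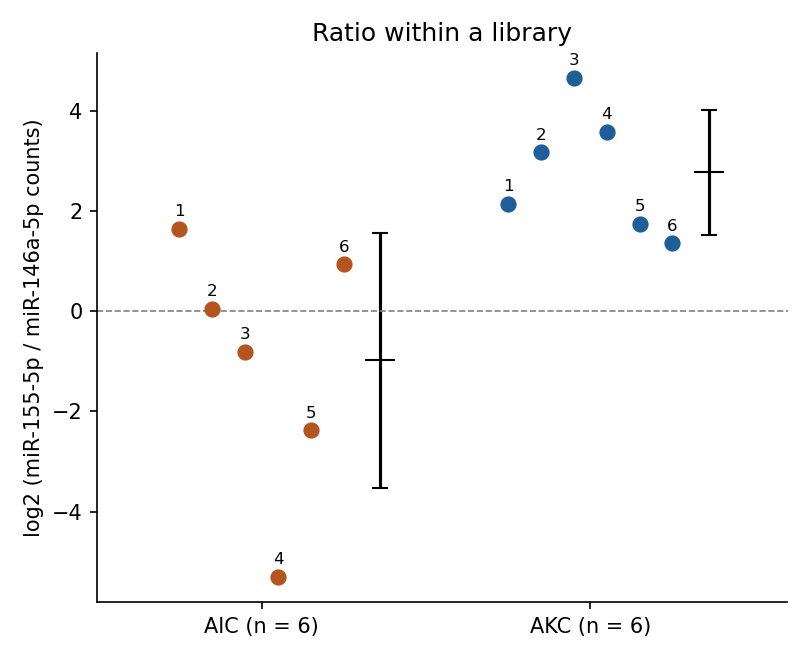
Log2 of the count of ssa-miR-155-5p over that of ssa-miR-146a-5p in each library (0.5 added to each count), with replicate numbers, and the mean and SD of each group beside its points (n = 6 per group). All AKC libraries lie above the dashed line of equal counts, between 1.36 and 4.66, and the AIC libraries run from -5.30 to 1.64.

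The spread between libraries was above that of the median miRNA for ssa-miR-155-5p in both groups and for ssa-miR-146a-5p in AKC, and below it for ssa-miR-146a-5p in AIC. For ssa-miR-155-5p the highest AIC library had 64.5 times the level of the lowest and the highest AKC library 9.37 times, whereas for ssa-miR-146a-5p it was 3.40 times in AIC and 29.9 times in AKC. The wide range of ssa-miR-155-5p in AIC rested on replicate 4, without which the highest library had 8.32 times the level of the lowest, and that of ssa-miR-146a-5p in AKC fell to 10.8 times without replicate 1. On the log2 scale the SD of ssa-miR-155-5p was 2.19 in AIC and 1.38 in AKC, and that of ssa-miR-146a-5p was 0.69 and 1.90. The median SD of the 76 tested miRNAs was 1.08 in AIC and 0.94 in AKC. Counted from the largest SD, ssa-miR-155-5p ranked 31 in AIC and 30 in AKC, and ssa-miR-146a-5p ranked 50 and 26. The mean distance from the group median was not shown to differ between AIC and AKC for ssa-miR-155-5p (1.59 and 0.99, exact permutation test, two-sided, p = 0.422), and for ssa-miR-146a-5p (0.52 and 1.52) it did not pass the threshold (exact permutation test, two-sided, p = 0.0606). Without AIC replicate 2 the latter difference passed it (exact permutation test, p = 0.0281). That library had the lowest ssa-miR-146a-5p in AIC, so leaving it out by itself narrows the AIC spread. No other library left out alone gave this outcome (exact permutation test, p from 0.0541 without AKC replicate 6 to 0.238 without AKC replicate 3). Without AIC replicate 4 the difference for ssa-miR-155-5p fell from 0.60 to 0.05 (exact permutation test, p = 0.946). The counting error of ssa-miR-155-5p was at most 14.4% of its count, in AIC replicate 4, and that of ssa-miR-146a-5p at most 6.21%, in AIC replicate 1.

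Within AKC, the libraries highest in one miRNA were also highest in the other. The correlation of their log2 CPM in AKC was positive but did not pass the threshold (Pearson r = 0.75, exact permutation p = 0.106, Spearman rho = 0.60, exact permutation p = 0.242, n = 6). Without replicates 1 and 2 together, the farthest from the median of ssa-miR-155-5p, r over the other 4 libraries was 0.04. Leaving out the farthest libraries also narrows the range, which by itself can lower r. Among those 4, replicates 3 and 6 had 947 and 902 CPM of ssa-miR-155-5p but 37.5 and 353 CPM of ssa-miR-146a-5p. With 1 library left out, r ran from 0.55 (without replicate 1) to 0.83 (without replicate 6).

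Within AIC the 2 miRNAs did not vary together in a detectable way (Pearson r = -0.37, exact permutation p = 0.469, Spearman rho = -0.60, exact permutation p = 0.242, n = 6). AIC replicate 4 had the lowest ssa-miR-155-5p of all libraries and an ssa-miR-146a-5p level near the top of its group. Without replicates 1 and 4, the farthest from the median of ssa-miR-155-5p, r was 0.06. Leaving out replicate 2 alone moved it the other way, to -0.76 (exact permutation p = 0.108). The 4 correlations had Benjamini-Hochberg adjusted exact permutation p values of 0.322 to 0.469, and all p values are two-sided. With total counts in place of TMM, r was -0.08 in AIC and 0.79 in AKC.

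**Figure D3:**
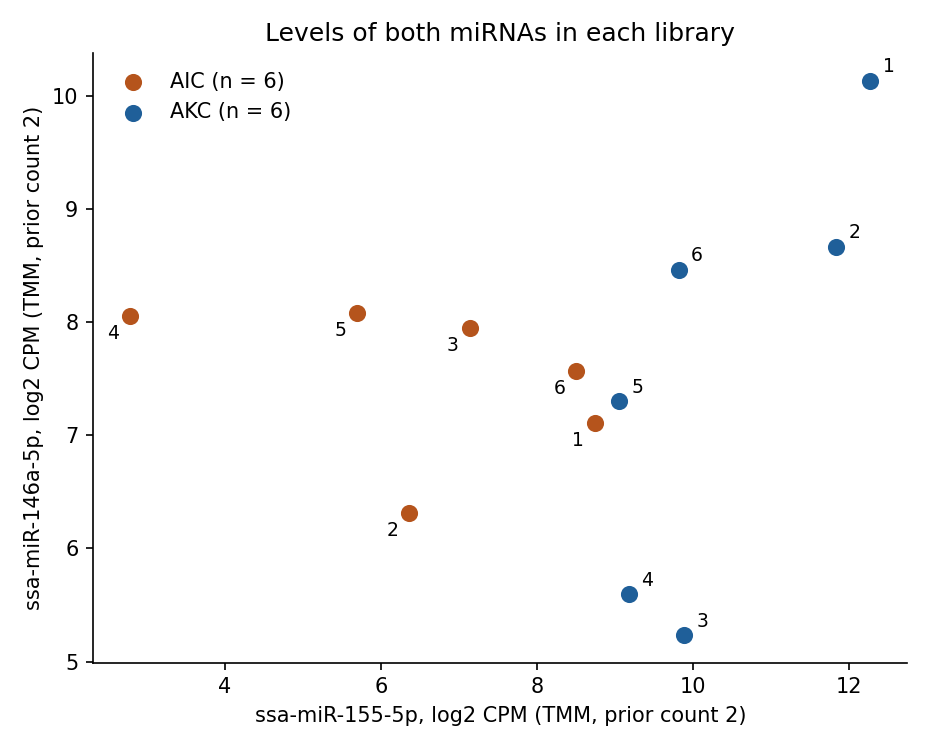
Log2 CPM of ssa-miR-146a-5p (vertical axis) against that of ssa-miR-155-5p (horizontal axis) in the 6 AIC and 6 AKC libraries, labelled by replicate number (TMM, prior count of 2). AKC replicates 1 and 2 lie at the upper right, and the other AKC libraries differ in ssa-miR-146a-5p between 5.24 and 8.46 at similar ssa-miR-155-5p.

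The minor miR-146 rows were seen in few libraries, and none of these 3 rows passed the filter on low counts. ssa-miR-146b-5p, a family member that shares the miR-146 name and in mammals the target range of miR-146a, had 615 counts in AKC replicate 1 and 524 in AKC replicate 2 (21.5 and 30.6 CPM) and at most 3 counts in each of the other 10 libraries. ssa-miR-146d-5p had 4543 counts in AKC replicate 1 and 900 in AKC replicate 2 (159 and 52.6 CPM). It was also at 10.4 CPM in AKC replicate 5, 16.4 in AIC replicate 3 and 12.9 in AIC replicate 6, and had at most 2 counts in any other library. The 2 AKC libraries with the highest ssa-miR-155-5p and ssa-miR-146a-5p were thus also the highest for both minor 5p rows.

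ssa-miR-146d-3p, the opposite arm of the ssa-miR-146d hairpin, was counted in AKC replicate 2 alone, with 335 counts (19.6 CPM). There it made up 27.1% of the reads on both arms (exact binomial 95% interval 24.7 to 29.7). AKC replicate 1 held 4543 counts of the 5p arm and 0 of the 3p arm, where 1691 would match the proportion of replicate 2. Set at the floor of 3 counts, the 3p arm would be at 0.0660 reads per 100 of the 5p arm in that library. This floor was chosen and is not a confidence limit. The 3 other libraries with more than 2 reads of the 5p arm also had none of the 3p arm, where the proportion of AKC replicate 2 would give 54.7 reads in AKC replicate 5, 38.7 in AIC replicate 3 and 10.8 in AIC replicate 6. AKC replicate 2 was thus the exception among 5 libraries, and its 3p reads have no replicate check.

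The rows ssa-miR-146b-5p and ssa-miR-146d-5p made up 13.9% of all miR-146 5p reads in AKC replicate 1, 17.0% in AKC replicate 2 and at most 6.37% in the other libraries. Reads of closely similar family members can be hard to assign to 1 row, so the split between miR-146 rows is uncertain, and whether these rows share reads was not tested. Among the members, 1 count was a fraction, 32035.7 for ssa-miR-146a-5p in AKC replicate 1. When the 5p rows were summed, in an alternative chosen after seeing the data, the log2 fold change was -0.97 (adjusted p = 0.435, edgeR) and again not called. Without a filter on low counts, where 5% of 180 miRNAs were called lower in AIC, edgeR gave adjusted p values of 0.364 for ssa-miR-146b-5p, 0.468 for ssa-miR-146d-5p and 0.0974 for ssa-miR-146d-3p.

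**Figure D4:**
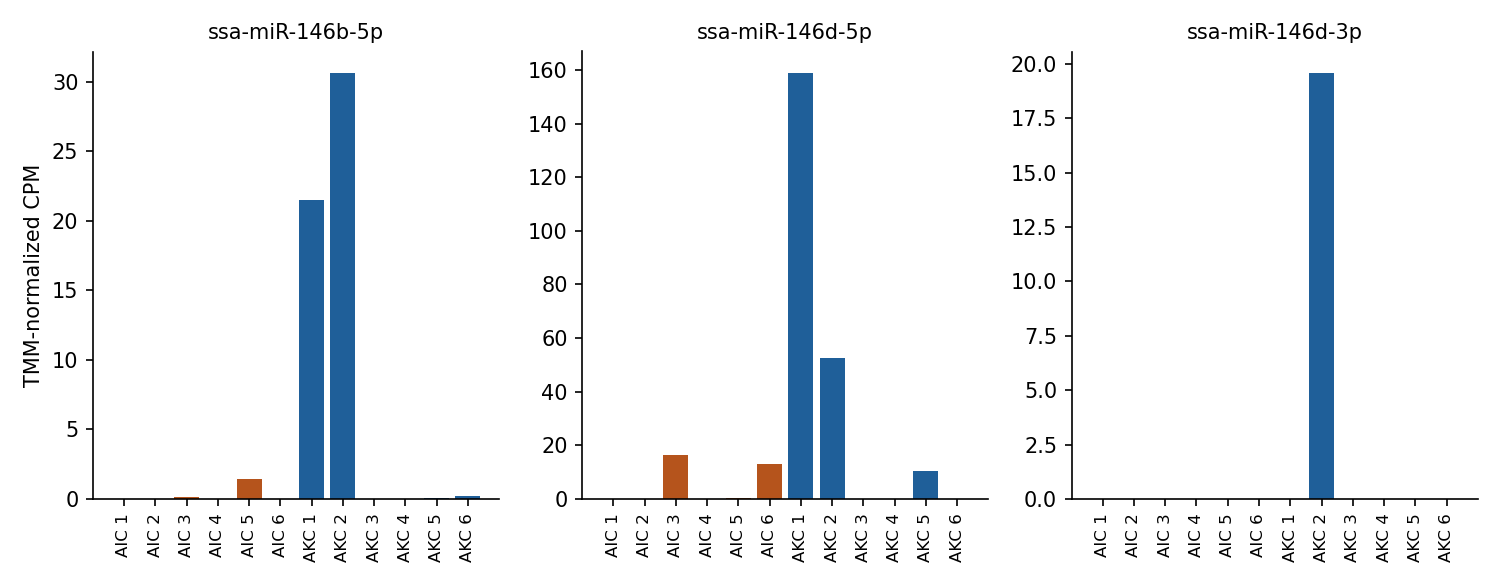
TMM-normalized CPM (bars from 0, each panel with its own scale) of ssa-miR-146b-5p, ssa-miR-146d-5p and ssa-miR-146d-3p in each of the 12 libraries. The tallest bars belong to AKC replicates 1 and 2, at 21.5 and 30.6 CPM for ssa-miR-146b-5p and 159 and 52.6 CPM for ssa-miR-146d-5p, and ssa-miR-146d-3p shows in AKC replicate 2 alone.

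Other miRNAs that respond to inflammatory signals in mammalian macrophages were taken as a list (miR-9, miR-21, miR-27, miR-125, miR-132, miR-147, miR-187, miR-212, miR-221 and miR-222, with all letters and arms). No row matched miR-147 or miR-187. Of its 21 rows, 5 were tested, 1 was called lower in AIC, 1 was called higher and 3 were not called, beside 9.21% called lower and 26.3% called in either direction among all tested miRNAs. With so few rows nothing is read from this count. Their median log2 fold change was -0.39, against 0.09 for all tested miRNAs. The row called lower was ssa-miR-21a-5p, a miRNA induced in activated mammalian myeloid cells, with a log2 fold change of -2.50 (adjusted p = 0.000498, edgeR). The row called higher was ssa-miR-125a-5p, at 2.61 (adjusted p = 2.17e-05, edgeR). The most abundant row of the list in both groups, ssa-miR-21b-5p, was at -1.21 and was not called (adjusted p = 0.113, edgeR). The whole list took 24.4% of the counts in AKC replicate 1 (exact binomial 95% interval 24.4 to 24.5) and 9.52% in AKC replicate 2 (9.50 to 9.54), against 3.20% to 6.51% in the other AKC libraries and 1.27% to 4.15% in AIC. AKC replicates 1 and 2 were thus also the highest of their group for this list, as they were for ssa-miR-155-5p and the miR-146 5p rows, and the part of the list's level in those results was not tested. Of the leukocyte list, 4 of 7 rows were tested, of which ssa-miR-181c-5p was called lower in AIC (-1.61, adjusted p = 0.00216, edgeR) and 3 were not called, with a median of -0.81, again too few to set against the 9.21% of all miRNAs.

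The tested miRNAs whose log2 CPM followed ssa-miR-155-5p most closely over the 12 libraries were ssa-miR-462b-5p (Pearson r = 0.87), ssa-miR-21a-5p (0.86) and ssa-miR-130a-5p (0.77). The last had no count in AIC replicates 2, 3 and 4, and 0.949 CPM in AIC replicate 5, which is under 3 counts. Its r thus rests in part on libraries without a countable signal. ssa-miR-462b-5p averaged 4632 ± 2496 CPM (SD, n = 6) in AKC against 1749 ± 537 CPM (SD, n = 6) in AIC. In AKC, replicates 1 and 2 were the highest at 7838 and 7425 CPM. ssa-miR-21a-5p reached 11679 CPM in AKC replicate 1 and 5877 CPM in AKC replicate 2, with 3054 to 3693 CPM in the other AKC libraries. Both miRNAs were picked here for their r with ssa-miR-155-5p in these same libraries. Their high levels in AKC replicates 1 and 2 therefore follow in part from that choice. With the group means subtracted, which leaves the variation between libraries within the groups, pooled over both groups, the closest were ssa-let-7h-5p (0.78), ssa-miR-462b-5p (0.71) and ssa-miR-128-3p (0.66).

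For ssa-miR-146a-5p the closest over the 12 libraries were ssa-miR-16c-5p (0.68), ssa-let-7i-5p (0.65) and ssa-miR-99-5p (0.64), and with the group means subtracted ssa-miR-23b-3p (0.82), ssa-miR-16c-5p (0.68) and ssa-miR-1338-3p (0.66). ssa-miR-23b-3p, which had the highest of these values, was itself higher in AIC, with 2423 ± 510 CPM (SD, n = 6) against 923 ± 550 CPM (SD, n = 6) in AKC. In AKC it followed the order of ssa-miR-146a-5p in its upper libraries, with 1707 CPM in replicate 1, 1406 in replicate 2 and 1018 in replicate 6. The likeness came from AKC, where r was 0.95 over 6 libraries, whereas in AIC it was -0.41 over 6 libraries. ssa-miR-146a-5p itself ranked 30 of 75 among the miRNAs compared with ssa-miR-155-5p over the 12 libraries (r = 0.19) and 23 of 75 with the group means subtracted (r = 0.27). The miRNAs named as closest were picked for their r in these same libraries, out of 75 compared, so high values follow from the choice. These correlations are descriptions over libraries that share 2 groups and 1 scaling. Those of ssa-miR-16c-5p, ssa-miR-99-5p and ssa-miR-1338-3p also rest in part on libraries at or near the floor of 3 counts. ssa-miR-16c-5p was at 0 CPM in AIC replicate 2 and 0.496 CPM in AKC replicate 5. In AKC replicates 3 and 4, ssa-miR-99-5p was at 0.227 and 0.492 CPM and ssa-miR-1338-3p at 0.0756 and 0.656 CPM.

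**Figure D5:**
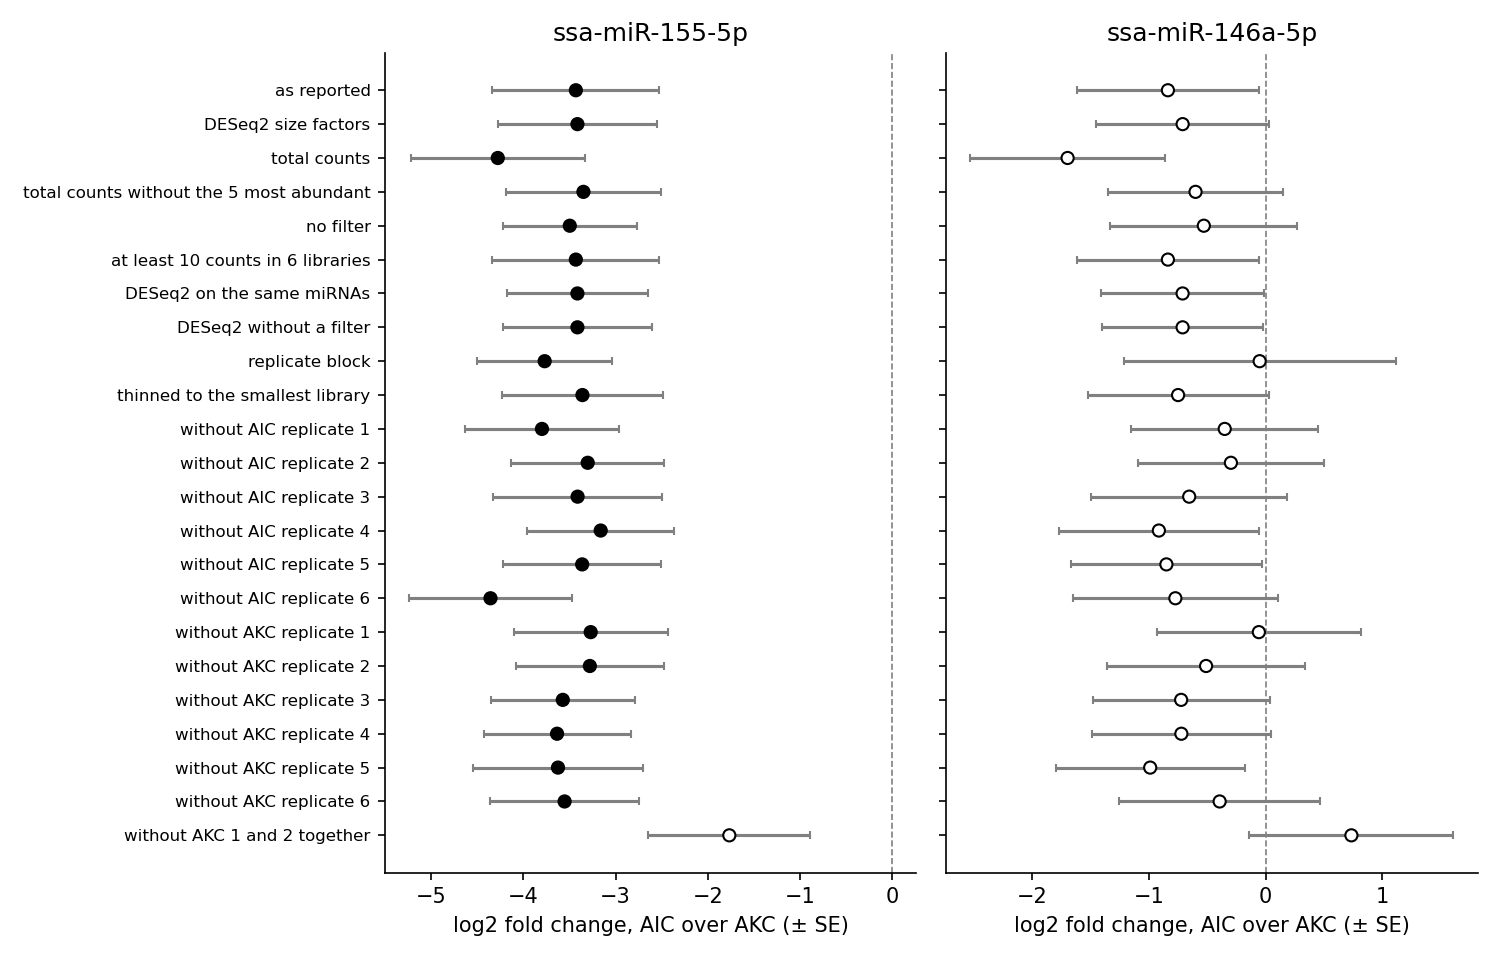
Log2 fold change (AIC over AKC, ± SE) of ssa-miR-155-5p (left) and ssa-miR-146a-5p (right) under each alternative, with filled points where the difference was called. ssa-miR-155-5p was called in every setting shown but the one without AKC replicates 1 and 2 together (-1.77), and ssa-miR-146a-5p in none, with values from -1.70 to 0.74.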

How the data were processed

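Per the study's methods, the authors used Cutadapt for adapters, the FASTX-Toolkit for read quality, and miRDeep2 for mapping to ICSASG_v2 and for counts on the salmon miRNAs of miRBase. Libraries were made from 50 ng of RNA with 25 PCR cycles. The authors deposited estimated counts (expected counts) per mature miRNA and library, not scaled for library size, and 12 of the 361 rows hold fractions. In 1 row that is no member, 7 counts are written to 3 significant digits, so those library totals are close but not exact. Removal of PCR copies is not described, and the exact Poisson and binomial intervals cover counting error only. The intervals of the fold changes come from the edgeR fit and include the spread between libraries.

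The counts were rounded and analysed with R 4.3.3, edgeR 4.0.16 and DESeq2 1.42.0. filterByExpr (minimum count of 10) kept 76 miRNAs, including 2 members, and the quasi-likelihood test was adjusted over all 76. Log2 CPM used a prior count of 2 and the ratio a pseudocount of 0.5. Standard errors are the log2 fold change over the square root of F. The scripts were tested on simulated data. The alternatives were other scalings, filters and tools, a replicate block, thinning and leaving out libraries. All members were named, with the 3 miRNAs nearest to each of the 2 tested members by either correlation, and the marker lists were described by counts. The members and lists were chosen with earlier results of these data known. The mRNA data of the study were not used here.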

Additional observations from a re-analysis of the deposited data

Results flagged for a closer look

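In each group of 6 libraries, the library farthest from the others was compared with the group's range (Dixon's gap test). Of 10 groups of values checked, 3 had such a library. The rate of about 1 in 20 that chance gives holds for normally distributed values, and CPM are skewed, so the number found is not read against it. ssa-miR-146a-5p was at 1121 CPM in AKC replicate 1, against 406 CPM in the next library. On the log2 scale its gap was 0.30 of the group's range and would not be picked out. ssa-miR-146d-5p was at 159 CPM in AKC replicate 1, against 52.6 CPM in the next. ssa-miR-146d-3p was at 19.6 CPM in AKC replicate 2 and had no count in the other AKC libraries, so that it is picked out by construction. AKC replicate 1 had the largest total count of all libraries, 19586480.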

How the results depend on the processing

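For ssa-miR-155-5p the direction was kept in all 23 alternatives and the call in 22, the exception being the fit without AKC replicates 1 and 2 together (-1.77). That fit alone turned the sign of ssa-miR-146a-5p (0.74), and no alternative called it. Requiring at least 10 counts in 6 libraries kept the same 76 miRNAs and repeated the main fit, so that alternative could not differ. The ratio of the 2 miRNAs kept its direction and stayed past the threshold in all 18 alternatives, from -4.28 to -2.89 when 1 library was left out. The number of miRNAs called moved from 20 to 41 (32 higher and 9 lower) without a filter on low counts, to 33 with DESeq2 on the same miRNAs and to 57 with DESeq2 and no filter. The median of all tested miRNAs was -0.65 with total counts and 0.09 with TMM. The difference in spread of ssa-miR-146a-5p ran from -1.23 to -0.66 when 1 library was left out. With the replicate number as a block (replicate block), ssa-miR-155-5p was at -3.77 and ssa-miR-146a-5p at -0.05, and the call of neither changed. The ratio under this block had an exact permutation p of 0.0312, the smallest that 6 pairs allow. The sources do not say that the replicate numbers mark fish, so the numbers are not taken to pair libraries. Deviations from the group means showed little relation between same-numbered libraries (mean correlation -0.00143, 0 of 6 pairs above 0.1). That value cannot decide the question, since a shared fish need not give a detectable correlation between organs. For the minor miR-146 rows, 3 counts in an AIC library are 0.417 to 1.59 CPM, and lower levels fall under the smallest signal taken as countable.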
